A study of Homo sapiens with 4 samples.

Results

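The peaks described here are those of LAP-Smad2 and LAP-Smad3 that lay at the promoters of protein-coding genes without a divergent partner, called one-way promoters. A peak was taken when the centre of its interval was within 1 kb of the transcription start site (TSS), the 5′ end of a protein-coding gene in GENCODE release 44. Genes with the TSS of another protein-coding gene on the opposite strand 0 to 1000 bp away, in divergent orientation, were left out. Of 20033 protein-coding genes, 18323 were one-way and 1710 were divergent. The rule found 6576 of the 89379 peaks in the lists made after TGFβ-1 treatment, and the whole series holds 104156 peaks.

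The cells were MDA-MB-231, a human breast cancer line, transfected with a bacterial artificial chromosome (BAC) that carried SMAD2 or SMAD3 with its own control elements and a C-terminal LAP tag. The tag contains GFP, and chromatin immunoprecipitation used an antibody against GFP. The cells were populations selected with Geneticin and sorted for GFP, they kept their endogenous Smads, and each tagged line was either untreated or given 10 ng/mL TGFβ-1 for 2 h. There was 1 library for each of the 4 conditions, so no difference between lists has a replicate check and no p-value is given. Intervals beside shares are Wilson 95% intervals, which cover counting error only.

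Ligands of the TGFβ family bind pairs of receptor kinases, which phosphorylate Smad2 and Smad3 at their C terminus. The phosphorylated proteins join Smad4, enter the nucleus and act on promoters and enhancers together with other transcription factors. Smad3 and Smad4 contact DNA through a hairpin that reads short motifs such as the CAGA box, while the common splice form of Smad2 carries an insert beside this hairpin and binds DNA weakly on its own.

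The depth of the libraries is unknown beyond a stated minimum, since the lists hold no read totals. Fold enrichment is the ratio of the pileup to the local background as the peak caller wrote it, and it is not on a common scale between lists. The labels of the untreated libraries name the opposite Smad to the one in the names of their deposited lists. The peaks at the SMAD2 locus also went against the labels. Within the SMAD2 gene and 100 kb on each side, 20 peaks were found in the library labelled LAP-Smad3 untreated and 2 in that labelled LAP-Smad2 untreated, where the treated LAP-Smad2 list had 27 and the treated LAP-Smad3 list 4. Around SMAD3 the library labelled LAP-Smad3 untreated had 1 peak and that labelled LAP-Smad2 untreated had 0. The treated LAP-Smad3 list had 53 there. The untreated libraries are called here as labelled, and no direction is drawn for either Smad from them. Promoter peaks cannot check the identity of the cell line.

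The windows shown first are the sequences on which several of the results turn, each the 200 bp on the centre of a peak in hg38, written 5′ to 3′ on the strand of the gene. Capitals mark matches, on either strand, to 4 Smad motifs, which are the palindromic Smad binding element GTCTAGAC, the CAGA box CCAGACA, and the GC-rich elements GGCGC and GGCCG. No window holds bases of an annotated UTR. TAF11L10, one of a tandem family of genes at which the highest peaks of both lists lay, had its Smad2 window at chr5:17597352-17597551 in the coding exon and its Smad3 window at chr5:17598165-17598364 upstream of the gene, both on the minus strand. The windows have 9 and 12 near-identical copies elsewhere in hg38. The Smad3 window is only the middle of a peak 2384 bp wide, which contained the whole Smad2 peak. The summit of that Smad3 peak, at chr5:17597363, lay within the Smad2 window.

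TAF11L10 Smad2 window: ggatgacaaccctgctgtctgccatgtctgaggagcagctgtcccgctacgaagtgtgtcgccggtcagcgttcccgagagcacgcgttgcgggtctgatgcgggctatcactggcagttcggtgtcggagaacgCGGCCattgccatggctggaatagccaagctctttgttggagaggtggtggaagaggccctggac
TAF11L10 Smad3 window: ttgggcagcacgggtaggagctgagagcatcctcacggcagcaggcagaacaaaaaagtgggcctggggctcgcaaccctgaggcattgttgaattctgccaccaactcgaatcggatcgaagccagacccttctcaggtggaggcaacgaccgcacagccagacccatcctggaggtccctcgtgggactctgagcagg

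SMYD2, a lysine methyltransferase, and KRTAP1-5, a keratin-associated protein of hair, had the Smad2 peaks with some of the highest −log10 q among those without another copy. The SMYD2 window was at chr1:214281255-214281454 on the plus strand, partly in the coding exon, and the KRTAP1-5 window was at chr17:41026789-41026988 on the minus strand, wholly in the coding exon. Their GC contents were 72.0% and 63.0%.

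SMYD2 Smad2 window: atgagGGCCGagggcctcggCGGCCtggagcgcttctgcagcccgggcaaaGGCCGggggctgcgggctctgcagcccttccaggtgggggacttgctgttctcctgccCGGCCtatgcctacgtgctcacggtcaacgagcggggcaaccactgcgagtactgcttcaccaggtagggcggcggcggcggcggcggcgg
KRTAP1-5 Smad2 window: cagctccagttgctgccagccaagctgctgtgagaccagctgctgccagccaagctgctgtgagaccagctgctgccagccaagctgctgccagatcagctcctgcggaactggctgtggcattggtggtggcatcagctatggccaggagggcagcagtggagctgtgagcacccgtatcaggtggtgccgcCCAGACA

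COL1A1, which encodes a chain of type I collagen, and the histone gene H3C2 show Smad3 windows. That of COL1A1 was in an intron at chr17:50200872-50201071 on the minus strand with a GC content of 65.5%, and that of H3C2 was in the coding exon at chr6:26031803-26032002 on the minus strand with 62.5%.

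COL1A1 Smad3 window: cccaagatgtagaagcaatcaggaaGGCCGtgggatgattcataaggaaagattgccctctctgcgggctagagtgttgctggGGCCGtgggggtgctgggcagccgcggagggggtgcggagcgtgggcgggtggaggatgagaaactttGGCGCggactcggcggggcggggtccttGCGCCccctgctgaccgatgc
H3C2 Smad3 window: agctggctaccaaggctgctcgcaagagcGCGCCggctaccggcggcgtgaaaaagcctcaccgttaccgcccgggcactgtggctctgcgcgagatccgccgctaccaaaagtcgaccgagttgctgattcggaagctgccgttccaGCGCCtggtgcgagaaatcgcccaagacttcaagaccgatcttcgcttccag

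YES1, a kinase of the SRC family, had overlapping peaks of both lists in an intron on the minus strand. The Smad2 window at chr18:811887-812086 had a GC content of 75%, and the Smad3 window at chr18:811746-811945, farther into the gene, had 67.5%.

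YES1 Smad2 window: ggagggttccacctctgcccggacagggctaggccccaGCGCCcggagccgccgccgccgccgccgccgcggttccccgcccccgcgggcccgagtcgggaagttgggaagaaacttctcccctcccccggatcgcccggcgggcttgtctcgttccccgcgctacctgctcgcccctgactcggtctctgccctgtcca
YES1 Smad3 window: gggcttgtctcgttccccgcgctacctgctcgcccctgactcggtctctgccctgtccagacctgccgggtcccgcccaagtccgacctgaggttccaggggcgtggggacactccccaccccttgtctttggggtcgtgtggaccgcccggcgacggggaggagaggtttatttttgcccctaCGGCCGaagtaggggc

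Smad2 had more peaks at one-way promoters than Smad3, although its list was the shorter one. The LAP-Smad2 list held 4038 such peaks among 26828, which is 15.1% of the list (14.6 to 15.5). The LAP-Smad3 list held 2538 among 62551, which is 4.06% (3.91 to 4.22). A Smad2 peak lay at 3927 one-way genes, 21.4% of all (20.8 to 22), and a Smad3 peak at 2432 genes, 13.3% (12.8 to 13.8). In the LAP-Smad2 list the share of promoter peaks was 8.54% in the tenth of the list with the highest −log10 q and 17.0% in the tenth with the lowest. In the LAP-Smad3 list these shares were 3.77% and 4.17%. Promoter peaks of Smad2 were thus less frequent among its strongest peaks, while those of Smad3 were spread evenly over its list. The median fold enrichment of the promoter peaks was 3.88 for Smad2 and 4.97 for Smad3, beside 4.0 and 4.97 for the other peaks of the same lists.

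Most genes with a promoter peak had a peak of 1 Smad. Smad2 peaks alone lay at 3282 genes (17.9%), Smad3 peaks alone at 1787 (9.75%), peaks of both at 645, which is 3.52% of one-way genes (3.26 to 3.80), and no peak at 12609 (68.8%). The 645 genes were 16.4% of the genes with a Smad2 peak and 26.5% of those with a Smad3 peak. A Smad2 peak was found at 26.5% of the genes with a Smad3 peak (24.8 to 28.3) and at 20.7% of those without one (20 to 21.3). These shares were not matched for the CpG content of the promoters, and counts by CpG class follow below. At 353 of the 645 genes (54.7%) the peaks of both lists overlapped by at least 1 bp. Counted by peaks, 351 Smad2 promoter peaks (8.69%, 7.86 to 9.60) overlapped a Smad3 peak, against 27.3% of the other Smad2 peaks. For Smad3, 352 promoter peaks (13.9%, 12.6 to 15.3) overlapped a Smad2 peak, against 10.4% of the other Smad3 peaks. The overlapping share was thus lower at promoters than elsewhere for Smad2 peaks and higher for Smad3 peaks. A near-identical copy of the window was found for 7.97% of the Smad2 promoter peaks and 41.9% of the other Smad2 peaks. The overlap of the other peaks was not counted without such copies.

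Smad2 peaks lay mostly inside the transcribed region, downstream of the TSS. Their median position was +268.5 bp, the middle of the distribution ran from +70.25 to +472 bp (quartiles), and 78.7% were downstream of the nearest one-way TSS (77.4 to 79.9). The fullest 100 bp bin was that from 200 to 300 bp downstream, with 603 peaks (14.9%). Smad3 peaks were spread more evenly. Their median was +94.5 bp with quartiles of -265 and +428 bp, 59.1% were downstream (57.1 to 61.0), and the fullest bin was that from 0 to 100 bp with 249 peaks (9.81%). Within 250 bp of the TSS lay 34.2% of the Smad2 peaks and 37.6% of the Smad3 peaks. This order turned with the definition of a promoter, to 28.6% and 23.7% with a distance of 2 kb and to 52.9% and 41.8% with the start of any protein-coding transcript.

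**Figure D1:**
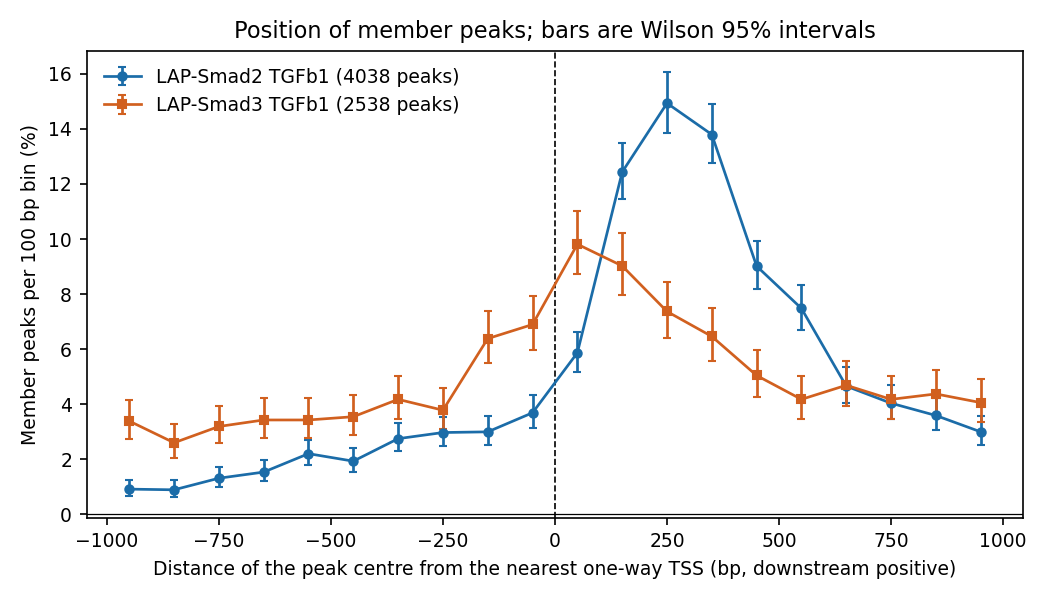
Share of promoter peaks of LAP-Smad2 and LAP-Smad3 after TGFβ-1 in 100 bp bins of distance from the nearest one-way TSS (bp, downstream positive), with Wilson 95% intervals. The Smad2 curve reaches 14.9% at 200 to 300 bp downstream, and the Smad3 curve reaches 9.81% at 0 to 100 bp.

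The annotation under the peak centres showed the same shift. Of the Smad2 centres, 22.5% lay in a coding exon, 22.4% in an exon of a UTR, 39.2% in an intron and 15.9% outside protein-coding genes. Of the Smad3 centres, 14.5% lay in a coding exon, 19.0% in an exon of a UTR, 34.9% in an intron and 31.6% outside. Within single genes hit by both, the order of the Smads depended on whether their peaks overlapped. At the 292 genes with peaks of both lists that did not overlap, the median position was +285 bp for Smad2 and -133.5 bp for Smad3, with a median gap of 694 bp. The Smad2 centre was the farther downstream at 189 of these genes (64.7%, 59.1 to 70). At the 353 genes with overlapping peaks the medians were +213 bp and +175 bp, and the Smad2 centre was the farther downstream at 157 (44.5%, 39.4 to 49.7). Over all 645 genes it was so at 346 (53.6%, 49.8 to 57.5).

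Divergent promoters were hit more often, above all by Smad3. Of the 1710 divergent genes, 27.4% (25.4 to 29.6) had a Smad2 peak, 19.8% (17.9 to 21.7) a Smad3 peak and 5.15% (4.20 to 6.30) peaks of both. High-CpG promoters made up 91.2% of the divergent genes and 55.7% of the one-way genes. Within high-CpG promoters the Smad2 share was 28.9% (26.7 to 31.2) at divergent and 31.8% (30.9 to 32.7) at one-way genes, and the Smad3 share was 20.5% (18.6 to 22.6) and 14.4% (13.7 to 15.1). A peak between divergent start sites is close to both genes of the pair and counts for each, so that these shares of genes are not counts of separate peaks.

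The promoter windows of the lists differed in base composition. The 200 bp windows of Smad2 had a mean GC content of 71.2% (SD 5.35, 4038 windows) and those of Smad3 of 62.0% (SD 5.01, 2538 windows). All 183225 windows that tile the one-way promoters from 1000 bp upstream to 1000 bp downstream had a mean of 54.3% (SD 13.4). From the 5th to the 95th percentile, Smad2 windows ran from 62.5% to 79.5% GC and Smad3 windows from 54.0% to 70%, while the tiling windows ran from 33.0% to 77.0%. Both lists thus covered a narrow band of the composition found at promoters, with little change over the promoter. In each of the 10 bins of 200 bp, the mean of the Smad2 windows was between 67.5% and 72.0% and that of the Smad3 windows between 58.8% and 63.0%, and Smad2 was the higher in every bin. The means of the tiling windows went from 46.7% in the bin farthest upstream to 62.2% in the bin just after the TSS and to 51.9% in the last bin.

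**Figure D2:**
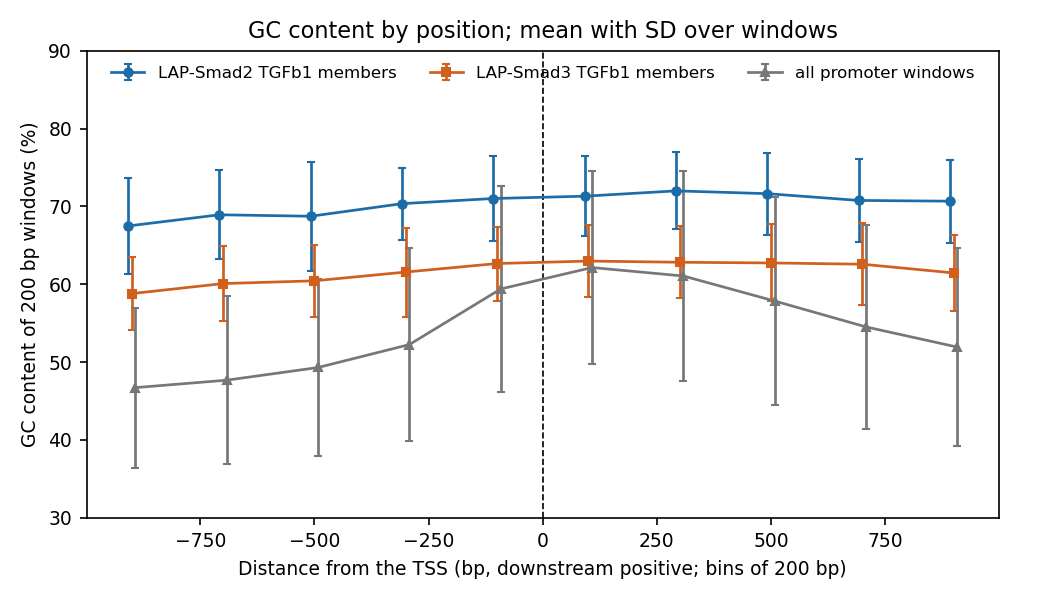
Mean GC content (%) of 200 bp windows in 200 bp bins of distance from the TSS (bp), for promoter peaks of LAP-Smad2, of LAP-Smad3 and for all windows that tile one-way promoters, with bars for the SD over windows. The Smad2 means lie between 67.5% and 72.0% and the Smad3 means between 58.8% and 63.0% in all 10 bins.

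The share of tiling windows that held a peak centre followed their GC content. For Smad2 the share was 0.0956% at 50 to 55% GC, 2.38% at 60 to 65%, 10.2% at 70 to 75% (9.74 to 10.8) and 5.26% at 80 to 85%. For Smad3 it was 0.896% at 50 to 55%, 4.83% at 60 to 65% (4.54 to 5.13), 1.07% at 70 to 75% and 0 of 3726 windows at 80 to 85%. At 60 to 65% GC the Smad3 list thus held more centres, with 956 windows against 472, and at 70 to 75% the Smad2 list did, with 1397 against 146. Read coverage by GC content was not analysed here, and the part of base composition in which promoters were called was not tested.

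**Figure D3:**
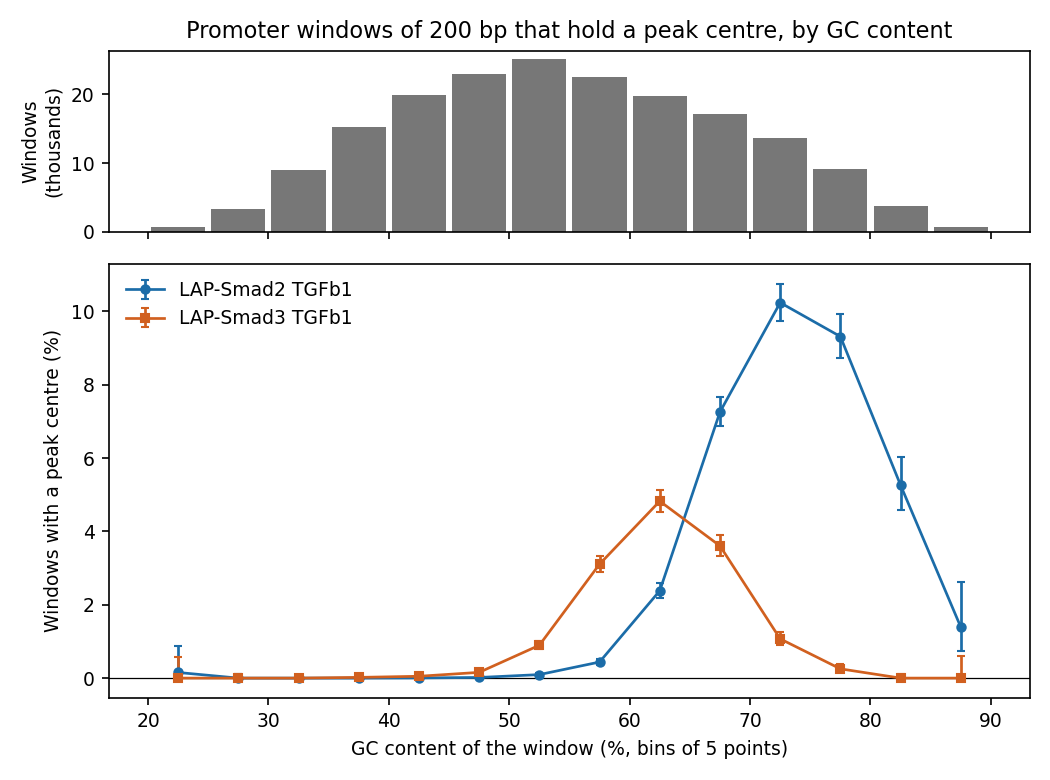
Upper panel, number of 200 bp windows that tile one-way promoters in bins of 5 points of GC content (%). Lower panel, share of these windows that hold a peak centre of LAP-Smad2 or LAP-Smad3 with Wilson 95% intervals, which is 10.2% at 70 to 75% GC for Smad2 and 4.83% at 60 to 65% GC for Smad3, the highest bin of each.

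The position of the peaks was also examined within 1 bin of GC content for each list, that with its highest share. Among windows of 70 to 75% GC, Smad2 centres lay in 11.9% of the downstream windows (11.3 to 12.6) and in 6.16% of the upstream windows (5.45 to 6.95). The share was 4.04% in the 200 bp before the TSS, 8.83% in the 200 bp after it and 16.8% (15.4 to 18.2) from 200 to 400 bp. Among windows of 60 to 65% GC, Smad3 centres lay in 5.24% of the downstream windows (4.85 to 5.66) and in 4.22% of the upstream windows (3.80 to 4.68), with the highest share, 7.41% (6.48 to 8.45), in the 200 bp after the TSS. In each list the downstream windows thus held a centre more often than upstream windows of similar composition. The bins differed between the lists, so the sizes of these shifts were not compared between the Smads at like composition.

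CpG-rich promoters, which in mammals serve widely expressed and developmental genes, carried most of the Smad2 peaks. Promoters were classed from the sequence 1000 bp upstream to 500 bp downstream of the TSS. The class was high if any window of 500 bp had at least 55% GC and a CpG observed/expected ratio of at least 0.75, low if no window exceeded a ratio of 0.48, and intermediate otherwise. A Smad2 peak lay at 31.8% of the 10198 high-class genes, at 14.5% (13.3 to 15.7) of the 3415 intermediate genes and at 4.08% (3.55 to 4.68) of the 4710 low-class genes. For Smad3 these shares were 14.4% (13.7 to 15.1), 16.4% (15.2 to 17.7) and 8.51% (7.75 to 9.35). Smad2 peaks thus lay at more of the high-class genes than Smad3 peaks, and Smad3 peaks at more of the low-class genes.

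**Figure D4:**
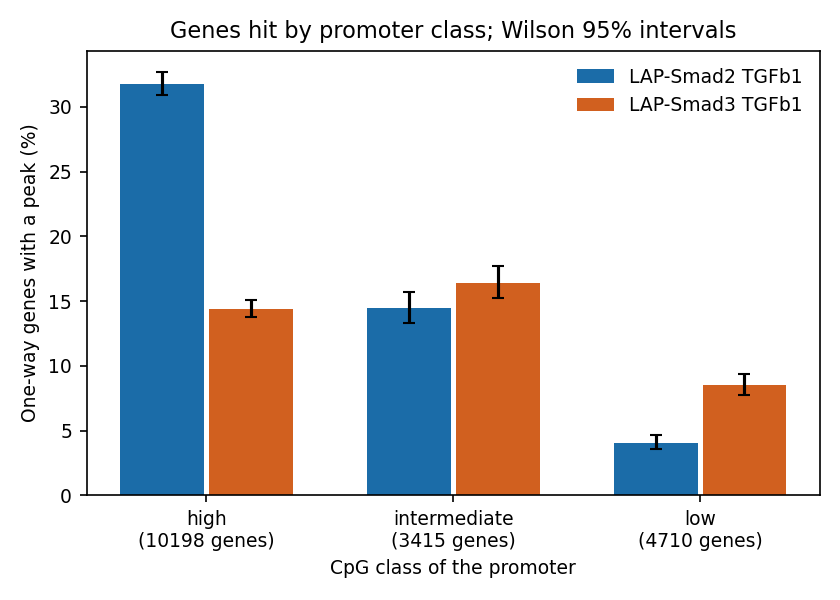
Share of one-way genes (%) with a promoter peak of LAP-Smad2 or LAP-Smad3 after TGFβ-1, by CpG class of the promoter, with Wilson 95% intervals. The Smad2 bars go from 31.8% in the high class to 4.08% in the low class, and the Smad3 bars are 14.4%, 16.4% and 8.51%.

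Genes with a Smad2 peak alone were of the high class in 84.5% of cases (83.2 to 85.7), those with peaks of both in 72.6% (69.0 to 75.9) and those with a Smad3 peak alone in 56.1% (53.8 to 58.4), close to the 55.7% of all one-way genes. A Smad2 peak was found at 468 of the 1470 high-class genes with a Smad3 peak, beside 31.8% of all high-class genes. The counts were 127 of 561 in the intermediate class, beside 14.5%, and 50 of 401 in the low class, beside 4.08%. The excess of Smad2 peaks at genes with a Smad3 peak thus lay in the intermediate and low classes and not in the high class. The windows under the peaks changed less than the promoters around them. In the low class, Smad2 windows had a mean GC content of 66.1% and Smad3 windows of 60.8%, where the tiling windows had 46.7%. In the high class the means were 71.7% and 62.7%, and that of the tiling windows was 58.8%. Smad3 peaks of the high class were also the least often downstream, at 55.9% (53.4 to 58.5), against 66.9% (62.4 to 71.0) in the low class. Smad2 peaks were downstream in 78.3% and 87.0% of cases in these classes.

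The Smad motifs were found under the peaks at shares close to those of promoter windows with the same GC content. Motifs were searched on both strands, and the expected share was that of the tiling windows in the same 2% bins of GC content. The CAGA box CCAGACA was in 2.38% of Smad2 windows and 4.10% of Smad3 windows, 0.914 and 1.05 times the expected share, and in 3.31% of all tiling windows. The palindrome GTCTAGAC was in 4 Smad2 and 2 Smad3 windows and in 0.102% of all tiling windows, too few for a comparison. GGCGC was in 75.4% of Smad2 windows, 1.01 times the expected share, and the Smad3 share was 1.07 times the expected one (1.02 to 1.11). GGCCG was in 79.0% of Smad2 windows, 1.04 times the expected share. In all tiling windows GGCGC had a share of 33.2% and GGCCG of 33.9%, so that nearly all of the difference from the tiling windows was also found in windows of matched GC content. GGCGC and GGCCG can overlap each other and the GC box.

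Several motifs of general promoter factors were less frequent in Smad2 windows than composition gave, some of them also in Smad3 windows, and others were close to it. The CCAAT box CCAAT, bound by NF-Y, had a ratio of 0.671 (0.602 to 0.747), the ETS motif CCGGAAG of 0.763, and the core GCATGCG of the NRF1 site of 0.615. Since these motifs gather just upstream of start sites, the background was also matched in distance from the TSS, a choice made after the values were seen. The ratios were then 0.764 (0.685 to 0.851), 0.806 (0.698 to 0.930) and 0.706 (0.533 to 0.934). The Smad3 ratios by the same matching were 0.914 (0.835 to 0.9996), 1.06 (0.895 to 1.24) and 1.05 (0.800 to 1.38). In all tiling windows the shares of these motifs were 20.4%, 2.92% and 1.25%. The GC box GGGCGG, in 24.1% of the tiling windows, had ratios of 0.939 (Smad2) and 0.902 (Smad3), and the TATA box TATAAA, in 8.76%, had ratios of 1.02 (0.700 to 1.48) and 0.980 (0.741 to 1.3), also after both matchings. The YY1 motif AAGATGG, in 3.44%, was under 1 in both lists by these matchings, at 0.709 (0.568 to 0.885) for Smad2 and 0.776 (0.615 to 0.978) for Smad3. The cyclic AMP response element TGACGTCA, bound by CREB and ATF proteins, went in opposite directions in the lists. It was in 8 Smad2 windows, with a ratio of 0.366 (0.186 to 0.722) after matching in GC content and position, while the Smad3 ratio was 1.77 (1.19 to 2.63). It was in 0.349% of all tiling windows. By the same matching, the nuclear receptor half-site AGGTCA, found in 11.3% of all tiling windows, had a ratio of 0.976 (0.864 to 1.10) in Smad2 and 1.14 (1.03 to 1.25) in Smad3 windows. The AP-1 motif TGANTCA (4.16% of tiling windows) had ratios of 0.744 (0.553 to 0.9999) in Smad2 and 0.985 (0.783 to 1.24) in Smad3 windows. For the forkhead motif TGTTTAC (1.985%) they were 0.675 (0.41 to 1.11) and 1.38 (1.004 to 1.90). The E-box CAGCTG (10.3%) was alike in both lists, at 1.06 (0.981 to 1.14) and 1.05 (0.954 to 1.15). With 18 motifs searched in both lists, some intervals miss 1 by counting error alone.

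Target genes of the TGFβ pathway had shares under those of all one-way genes, with intervals that include them. Of 40 known targets, 7 had a Smad2 peak (17.5%, 8.75 to 32.0) and 4 a Smad3 peak (10.0%, 3.96 to 23.1), beside 21.4% and 13.3% of all one-way genes. The Smad2 genes were CCN1, a matricellular protein, at +223 bp, LDLRAD4, an inhibitor of Smad phosphorylation, at +442 bp, KLF10, a zinc finger factor induced early by TGFβ, at +534 bp, SKIL, a repressor of Smads, at +565 bp, VEGFA, the angiogenic factor, at +658 bp, ID1, an inhibitor of bHLH factors, at +792 bp, and RHOB, a small GTPase, at +947 bp. Each of these 7 genes had its Smad2 peak downstream of the TSS. The Smad3 genes were COL1A2 at -55 bp, COL1A1 at +661 bp, ID1 at +732 bp and MYC, a growth-promoting factor that TGFβ represses in epithelial cells, at +888 bp.

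ID1 was the only one of the 40 targets with peaks of both lists, and they overlapped, at chr20:31605938-31606212 for Smad2 and chr20:31605839-31606191 for Smad3. The fold enrichment was 3.38 with a −log10 q of 4.42 for Smad2 and 4.59 with a −log10 q of 4.91 for Smad3. COL1A2 had the highest −log10 q of the Smad3 targets, 6.60, with a fold enrichment of 6.62. SMAD7, JUNB, CCN2, PMEPA1, CDKN1A, SNAI1 and BAMBI, which are among the best known targets, had no peak of either list within 1 kb of the TSS. Peaks farther from these start sites were outside the rule. None of the peaks at targets overlapped a peak of either untreated list.

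Genes of the pathway itself had more Smad2 than Smad3 peaks. Of 47 one-way genes of the pathway, 16 had a Smad2 peak (34%, 22.2 to 48.3) and 5 a Smad3 peak (10.6%, 4.63 to 22.6), beside 21.4% and 13.3% of all one-way genes. The GC content of these promoters gave 16.7 windows with a Smad2 centre where 19 were found, and 7.02 with a Smad3 centre where 5 were found. These counts include SMAD2, with 2 Smad2 peaks, and SMAD3, with 1 Smad3 peak, whose loci are on the BACs. Among the ligands, INHBA, the activin A chain, had peaks of both lists that did not overlap, at +148 bp for Smad2 and +849 bp for Smad3. TGFB1 itself had a Smad2 peak at -930 bp, and GDF11, a ligand of the activin branch, had a Smad3 peak at +527 bp. The family members TGFB2, TGFB3, INHBB, NODAL, GDF15, LEFTY1 and LEFTY2 had no peak of either list.

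Some genes of proteins that store or trap ligands had Smad2 peaks, while LTBP1, LTBP4 and FSTL3 had no peak of either list. LRRC32, which displays latent TGFβ on the cell surface, had its peak at +127 bp, FST, which binds activin, at +137 bp, LTBP3, a latent TGFβ binding protein, at -169 bp, and LTBP2 of the same family at +849 bp. Of the receptors, ACVR1C had a Smad2 peak at +248 bp, TGFBR2 at +296 bp, BMPR2 at +355 bp, BMPR1A at -437 bp, BMPR1B at +576 bp and ACVR2A at -588 bp, while ACVR2B had a Smad3 peak at +801 bp. The receptors TGFBR1, ACVR1B and ACVRL1 had none. Inside the cell, the ubiquitin ligases SMURF1 at +328 bp and WWP1 at +418 bp and the repressor TGIF2 at +419 bp had Smad2 peaks, and SMURF2 had a Smad3 peak at +974 bp, whose window has 1 other copy. SMAD4 had no peak of either list.

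Among the treated lists, SMAD2 had 2 promoter peaks in the Smad2 list and none in the Smad3 list, and SMAD3 had 1 in the Smad3 list and none in the Smad2 list. Both SMAD2 peaks overlapped peaks found untreated in the library labelled LAP-Smad3, which had 3 promoter peaks there, and neither overlapped a peak of that labelled LAP-Smad2. Both loci are on the BACs, so that added copies of the locus and binding to it cannot be told apart. The higher SMAD2 peak had a −log10 q of 38.9 at a fold enrichment of 2.91.

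Clustered histone genes, most of which are transcribed when DNA is replicated, were hit often by Smad3, also when peaks with another copy were left out. The list also holds the variant genes H1-6, H2AB1, H2AB2 and H2AB3. Of 45 one-way histone genes, 23 had a Smad3 peak (51.1%, 37.0 to 65), 14 a Smad2 peak (31.1%, 19.5 to 45.7) and 13 peaks of both. The Smad2 interval includes the 21.4% of all one-way genes. The CpG classes of the histone promoters, 35 of them high, gave shares of 27.9% for Smad2 and 14.9% for Smad3. The tiling windows of these promoters had a mean GC content of 49.3%. Their GC content gave 6.48 windows with a Smad3 centre where 30 were found and 3.87 with a Smad2 centre where 17 were found. The peaks lay on the genes, with 21 of 28 Smad3 peaks and 14 of 16 Smad2 peaks in a coding exon. The highest Smad3 peaks were at H4C12 (fold enrichment 9.57, +116 bp), H4C15 (8.97, +136 bp) and H4C11 (8.20, +90 bp). Those of Smad2 were at H3C13 (4.88, +212 bp), H1-4 (4.32, +287 bp) and H3C8 (4.03, -884 bp).

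Histone genes resemble each other, and reads from 1 copy can be placed on another. Another copy of the window was found for 17 of the 28 Smad3 peaks and 8 of the 16 Smad2 peaks. Without peaks that have another copy, 11 of the 45 genes kept a Smad3 peak (24.4%, 14.2 to 38.7), beside 10.9% of all one-way genes under the same filter. A Smad2 peak was kept by 6 genes (13.3%, 6.26 to 26.2), beside 19.8% of all one-way genes, so that the Smad2 share was no longer above that of all genes.

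Keratin-associated proteins crosslink hair keratin and are encoded by short genes in clusters. Their Smad2 share was above that of all one-way genes when all peaks were counted. It was under that of all one-way genes when peaks with another copy were left out. Of 94 genes, 40 had a Smad2 peak (42.6%, 33.0 to 52.6) and 10 a Smad3 peak (10.6%, 5.88 to 18.5). None of these promoters was of the high CpG class, and their tiling windows had a mean GC content of 46.5%. Composition gave 9.66 windows with a Smad2 centre where 41 were found, and 11.7 with a Smad3 centre where 10 were found. All 41 Smad2 peaks were downstream of the TSS and 40 were in the coding exon. The highest were at KRTAP1-5 (fold enrichment 6.93, +320 bp), KRTAP2-1 (6.20, +334 bp) and KRTAP2-4 (6.41, +241 bp). Another copy of the window was found for 29 of the 41, and 12 genes kept a Smad2 peak without these (12.8%, 7.46 to 21), beside 19.8% of all one-way genes under the same filter. The CpG classes of these promoters gave a lower Smad2 share, 5.96%, with all peaks counted. The untreated library labelled LAP-Smad3 had peaks at 10 of the 94 genes and that labelled LAP-Smad2 at 1.

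**Figure D5:**
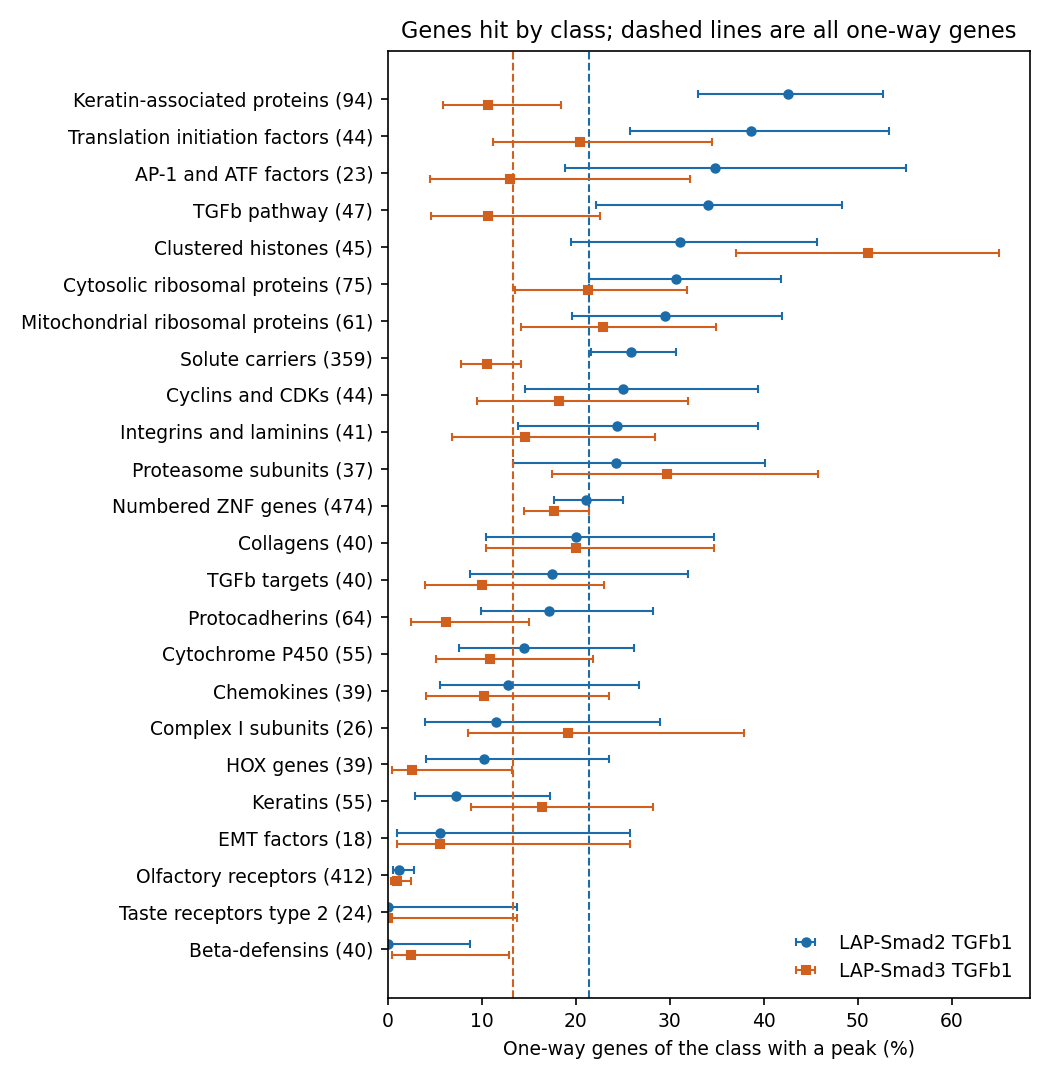
Share of the one-way genes of 24 gene lists (%, number of genes in brackets) with a promoter peak of LAP-Smad2 or LAP-Smad3 after TGFβ-1, with Wilson 95% intervals. Dashed lines mark the shares of all one-way genes, 21.4% and 13.3%; keratin-associated proteins reach 42.6% for Smad2 and clustered histones 51.1% for Smad3.

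Genes of protein synthesis and turnover had shares above the 21.4% (Smad2) and 13.3% (Smad3) of all one-way genes, with wide intervals, and most of their promoters were of the high CpG class. The Smad2 shares that their CpG classes gave were 28.9% for cytosolic ribosomal, 29.3% for mitochondrial ribosomal, 25.6% for proteasome and 28.7% for initiation factor genes, and the Smad3 shares were 14.6%, 14.5%, 14.6% and 14.2%. The Smad2 shares of the ribosomal and proteasome genes were thus close to those of promoters of like class. The GC content of the windows gave fewer windows with a centre than were found. For Smad2 it gave 12.4 where 23 were found (cytosolic ribosomal), 13.7 where 20 were found (mitochondrial ribosomal) and 6.18 where 9 were found (proteasome). For Smad3 it gave 13.1 where 18 were found, 9.55 where 18 were found and 6.25 where 11 were found. Of 75 genes for cytosolic ribosomal proteins, 23 (30.7%, 21.4 to 41.8) had a Smad2 peak and 16 (21.3%, 13.6 to 31.9) a Smad3 peak. Examples were RPL10A (fold enrichment 3.74, +454 bp) for Smad2, and RPL5 (7.95, +187 bp) and RPL37 (7.16, -5 bp) for Smad3. Of 61 genes for mitochondrial ribosomal proteins, 18 (29.5%, 19.6 to 41.9) had a Smad2 peak, such as MRPS25, and 14 (23%, 14.2 to 34.9) a Smad3 peak, such as MRPL58. Of 44 translation initiation factors, 17 (38.6%, 25.7 to 53.4) had a Smad2 peak, led by EIF3H (fold enrichment 6.41, +173 bp) and EIF4A3 (5.28, +328 bp), and 9 (20.5%, 11.2 to 34.5) a Smad3 peak. Of 37 proteasome subunits, 11 (29.7%, 17.5 to 45.8) had a Smad3 peak, led by PSMB3, and 9 (24.3%, 13.4 to 40.1) a Smad2 peak. PSMB8 and PSMB9, which encode subunits of the immunoproteasome, shared 1 Smad3 peak (fold enrichment 6.16), at +620 bp of the first and -77 bp of the second.

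Most of the other lists had shares close to those of all genes or under them, with solute carriers for Smad2 and numbered zinc finger genes for Smad3 above. Of 39 HOX genes, which pattern the body axis, 4 had a Smad2 peak and 1, HOXA4, a Smad3 peak (2.56%, 0.454 to 13.2), where composition gave 10.6 and 8.48 windows with a centre. Of 18 factors of the epithelial-mesenchymal transition, VIM had a Smad2 peak and GRHL2 a Smad3 peak. Of 412 olfactory receptor genes, whose promoters are AT-rich, 5 (1.21%) had a Smad2 peak and 4 (0.971%) a Smad3 peak, and none of 24 taste receptor genes had either. Of 40 β-defensin genes, 1 had a Smad3 peak and none a Smad2 peak. Of 40 collagen genes, 8 had a Smad2 peak and 8 a Smad3 peak, 20% each, and the highest of these was the Smad3 peak at COL5A1 (fold enrichment 8.36, +941 bp). Of 359 solute carriers, 93 (25.9%, 21.6 to 30.7) had a Smad2 peak and 38 (10.6%, 7.81 to 14.2) a Smad3 peak. Their CpG classes gave a Smad2 share of 20.4%, and their GC content gave 91.8 windows with a Smad2 centre where 102 were found. Of 474 numbered zinc finger genes, 100 (21.1%) had a Smad2 peak and 84 (17.7%, 14.5 to 21.4) a Smad3 peak. Their CpG classes gave a Smad3 share of 14.6%, within this interval, and their GC content gave 73.6 windows with a Smad3 centre where 91 were found.

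AP-1 and ATF genes, partners of Smads at many enhancers, had Smad2 peaks at 8 of 23 (34.8%, 18.8 to 55.1), led by FOSL1 (fold enrichment 3.89, +837 bp), and Smad3 peaks at 3, which were ATF5, JUN and ATF2. The shares of all one-way genes were 21.4% for Smad2 and 13.3% for Smad3, and the Smad2 interval includes the first. Composition gave 8.27 windows with a Smad2 centre where 9 were found, and 4.24 with a Smad3 centre where 3 were found. Cyclins and CDKs had Smad2 peaks at 11 of 44 (25%, 14.6 to 39.4) and Smad3 peaks at 8 (18.2%, 9.51 to 32.0). Among the latter were CDK5 (fold enrichment 10.1, -418 bp), CDK1 (6.62, +390 bp) and CDK6 (6.35, +839 bp). Both intervals include the shares of all one-way genes. Composition gave 13.7 windows with a Smad2 centre where 14 were found, and 6.85 with a Smad3 centre where 9 were found. Complex I subunits, integrins and laminins, keratins, chemokines, cytochrome P450 genes and protocadherins had between 7.27% and 24.4% of their genes hit by Smad2 and between 6.25% and 19.2% by Smad3. These stand beside 21.4% and 13.3% of all one-way genes.

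The highest promoter peaks of both lists lay in 1 tandem array. Outside the SMAD2 and SMAD3 loci, the 5 promoter peaks with the highest −log10 q were in both lists at genes of the TAF11L family, which resemble TAF11, a subunit of the general factor TFIID. Of 13 one-way TAF11L genes at chr5:17498231-17635053, 10 had a Smad2 peak and 11 a Smad3 peak, and all 10 had peaks of both. The Smad2 peaks were narrow and inside the gene, as at TAF11L6, with a width of 394 bp at +391 bp and a −log10 q of 38. The Smad3 peaks were wide and spanned the TSS, as at TAF11L4, with a width of 1625 bp at -62 bp and a −log10 q of 63.1. These positions are those of centres, and the centres of the wide peaks lay away from their summits. The TAF11L4 summit was at chr5:17522152, downstream of the TSS at chr5:17521801. At TAF11L6 the summits were at chr5:17529037 for Smad2 and chr5:17529141 for Smad3, both downstream of the TSS at chr5:17528669. The windows of the named peaks had 8 to 12 other copies, so that their reads cannot be assigned to single genes of the array.

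Without windows that have another copy, a rule added after the values were seen, the highest Smad2 peaks were at SMYD2 (fold enrichment 9.02, +252 bp), GNMT, a glycine methyltransferase (4.85, +70 bp), KRTAP1-5, MOCS1, an enzyme of molybdenum cofactor synthesis (5.92, +173 bp), and TBRG1, named as a transforming growth factor β regulator (6.85, +184 bp). The highest Smad3 peaks were at PIH1D2 (10.2, +47 bp), CUTA (10.6, +201 bp), UQCC2, an assembly factor of respiratory complex III (9.78, +192 bp), TREML2, a receptor of myeloid cells (10.5, +139 bp), and CDK5. The Smad2 peaks had a GC content of 63.0% to 74.5% and the Smad3 peaks of 56.5% to 69.5%. By the same rule, the genes with the strongest overlapping peaks of both were TBRG1, MAPK14, the p38α kinase that TGFβ can activate, YES1, NKAPL and FHIT, a tumour suppressor. At TBRG1 the centres were at +184 bp for Smad2 and +106 bp for Smad3.

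A few promoters carried several separate peaks. RBBP8NL had 4 Smad3 peaks between -945 and +613 bp. A count of 3 Smad2 peaks was reached at ADORA2B, KAT6B, MAPK8, NEURL1, PALD1, POMT1, RTP3, SLC43A2 and an unnamed gene. KAT6B encodes a histone acetyltransferase and MAPK8 the kinase JNK1. In all, 365 genes (9.29%) had more than 1 Smad2 peak and 264 (10.9%) more than 1 Smad3 peak.

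Near-identical copies were rarer among promoter peaks than in the rest of the lists. Another copy of the window was found for 7.97% of the Smad2 promoter peaks (7.18 to 8.85), against 41.9% of the other Smad2 peaks, and for 21.6% of the Smad3 promoter peaks (20 to 23.2), against 42.2% of the other Smad3 peaks. Among the tenth of promoter peaks with the highest −log10 q the shares were 15.8% and 49.2%. The strongest Smad3 promoter peaks thus lay in large part on repeated sequence.

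The chromosomes differed in the share of genes hit, above all for Smad2. A Smad2 peak lay at 36.9% of the one-way genes of chromosome 20, 34.5% of chromosome 10 and 30.6% of chromosome 6, but at 8.17% of chromosome X, 8.63% of chromosome 16 and 9.33% of chromosome 22. The Smad3 shares of the same chromosomes were 14.4%, 14.2%, 18.9%, 8.04%, 11.7% and 8.37%. Copy number of the chromosomes in these cells was not analysed here, and its part in these shares was not tested.

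The untreated lists held fewer promoter peaks. The library labelled LAP-Smad2 untreated had 256 (2.27% of its list) at 242 genes, and that labelled LAP-Smad3 untreated had 526 (15% of its list) at 544 genes. Of the Smad2 promoter peaks after TGFβ-1, 79 (1.96%) overlapped a peak of the first and 323 (8.0%) a peak of the second, and of the Smad3 promoter peaks 60 (2.36%) and 54 (2.13%). Thus 9.46% of the treated Smad2 and 4.02% of the treated Smad3 promoter peaks overlapped any untreated peak. In the library labelled LAP-Smad3 untreated, 85.6% of the promoter peaks were downstream of the TSS (82.3 to 88.3) with a mean GC content of 71.8% (SD 5.03). In the library labelled LAP-Smad2 untreated, 56.6% were downstream (50.5 to 62.6) and the GC content was 66.0% on average with a wide SD of 15.3.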

How the data were processed

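Anti-GFP ChIP-seq of LAP-Smad2 and LAP-Smad3 cells, untreated or treated with TGFβ-1, gave 4 lists of peaks from 1 library each. Single-end reads were mapped by the authors with Bowtie2 (hg38) and extended to 200 bp, and MACS2 called the peaks with a q-value threshold of 0.05. The deposited lists give fold enrichment, a ratio over the local background, the p-value and the q-value of each peak, both as −log10 from the authors' peak caller, and the offset of the summit. The control library, tool versions and filters are not given in the sources used here, and depth is unknown.

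Peaks were assigned to GENCODE 44 start sites with Python 3.11.15, numpy 2.4.6, pandas 2.3.3 and pysam 0.24.0. Distances run from the TSS to the centre of the interval, and a peak near several one-way genes counts for each gene but once as a peak, at the nearest. Wilson 95% intervals came from scipy 1.17.1. Other copies were alignments by minimap2 2.31 elsewhere in hg38 with at least 90% of the 200 bases matching, with up to 50 further alignments listed per window. No test was made, since each condition has 1 library. The members, the 24 gene lists, the 18 motifs and the rules were chosen with earlier results of these data known. Named genes were those of the lists of TGFβ targets and pathway genes, the genes at the 5 highest peaks of each list and the 5 highest overlapping pairs outside the SMAD2 and SMAD3 loci, those with the most peaks, and up to 3 examples per gene list by −log10 q. H3C2 and the peaks without another copy were chosen after their values were seen. The expected number of windows in a gene list was the sum, over the list's own tiling windows, of the share of all tiling windows in the same 2% bin of GC content that held a centre, which was added after the values were seen. The alternatives were other thresholds, distances, start sites, list lengths and filters. Simulated peaks and genes with known answers were used to test the functions.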

Additional observations from a re-analysis of the deposited data

How the results depend on the processing

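No paired analysis was possible because each condition has 1 library and no test was made. Smad2 peaks were downstream more often than Smad3 peaks, and hit more of the high-class genes, in every setting run for these results. Of 131 values for the main results 97 stayed within 1.5 times a count, within the interval of a share or within 1 SD of the mean GC content. Where only the LAP-Smad3 list was cut, the Smad2 values other than the overlap could not change, and they count among the 97. With a distance of 500 bp, 1588 Smad3 peaks at 1598 genes were left, 307 genes had peaks of both, and 23.9% (Smad2) and 9.26% (Smad3) of high-class genes were hit. With 2 kb, there were 4026 Smad3 peaks, 1131 genes with peaks of both, 35.1% and 21.1% of high-class genes hit, and 11.3% of the Smad3 peaks overlapped a Smad2 peak. With the start of any protein-coding transcript, there were 4132 Smad3 peaks and 1220 genes with peaks of both, the downstream shares were 71.3% and 56.3%, 34.9% and 20.3% of high-class genes were hit, and the Smad3 overlap was 11.6%. With the LAP-Smad3 list cut to the length of the LAP-Smad2 list, 1066 Smad3 peaks at 1074 genes were left, 306 genes had peaks of both, 6.12% of high-class genes had a Smad3 peak, and the overlaps were 4.31% of Smad2 and 16.0% of Smad3 peaks. Without peaks that have another copy, the overlaps were 6.57% and 12.3%, and 30.1% and 12.9% of high-class genes were hit. Without peaks that overlap an untreated list, the overlaps were 7.71% and 11.5%, and 29.4% of high-class genes had a Smad2 peak. Where 50% of each peak had to be covered, 4.14% and 6.62% of peaks overlapped, and with summits within 100 bp 4.04% and 6.38%. A stricter q-value, the summit in place of the centre, a shorter divergent distance, and leaving out the BAC loci or peaks near divergent start sites moved none of these values. Of 144 counts in gene lists, 121 stayed within 1.5 times, and 17 of the 23 others came from the shortened LAP-Smad3 list. The 121 include the Smad2 counts of that setting, which were fixed because the LAP-Smad2 list was not cut. Of the 24 Smad3 counts there, 17 moved. The shortened list turned the order of the Smads for proteasome (9 Smad2 and 6 Smad3 genes), complex I (3 and 2) and keratin genes (4 and 2). The order of the shares within 250 bp turned with 2 kb (28.6% and 23.7%) and with any transcript start (52.9% and 41.8%). Of 33 motif ratios, matching the background in position as well moved 1, that of CCAAT in Smad2 windows, from 0.671 to 0.764. The causes of these shifts were not tested. Depth is unknown, so a missing peak does not show that a promoter was unbound.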
